A study of Arabidopsis thaliana with 6 samples.

Results

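The genes described here encode enzymes and proteins that build or modify the plant cell wall, chosen by gene symbol from the families TBL, GH9, XTH, EXPA, EXPB, CSL, CESA, GAUT and FLA. A gene was a member if a probe set, the group of probes that measures 1 transcript, was annotated with that gene alone. This gave 69 genes, each measured by 1 probe set, of 13356 genes named alone by a probe set and 22746 probe sets tested. The families were unevenly covered, with 22 TBL, 15 GH9, 10 EXPA, 9 XTH, 8 CSL, 4 EXPB and 1 GAUT gene. No CESA or FLA gene was among the members, so the cellulose synthase subunits and the fasciclin-like arabinogalactan proteins were not analysed here. The label of wall-building enzymes therefore rested on the CSL and TBL genes and on GAUT15.

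The study profiled transcripts of 3-week-old Arabidopsis thaliana on Affymetrix arrays of short oligonucleotide probes. The 6 arrays comprised 2 biological replicates each of the wild type and of the mutants camta3-1 and camta3-2, which carry different alleles of CAMTA3. CAMTA3 is a transcription factor that binds calmodulin and is best known for holding down defence genes of the salicylic acid pathway. The labels name neither the tissue nor the kind of mutation in each allele. The level of CAMTA3 itself was not analysed here, and genotypes were taken from the labels alone.

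The growing plant wall is a network of cellulose microfibrils tethered by hemicelluloses (xyloglucan, xylan and mannan) and embedded in pectin. Cellulose synthase-like (CSL) proteins of the CSLA and CSLC branches make mannan and xyloglucan backbones in the Golgi. Several trichome birefringence-like (TBL) proteins add acetyl groups to hemicelluloses. Once in the wall, xyloglucan is cut and rejoined by XTH enzymes, expansins (EXPA and EXPB) loosen the network as cells enlarge, and GH9 endo-glucanases cut glucan chains. Expression of these genes is known to follow cell expansion in leaves and roots.

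Values were log2 expression values, so that 1 unit is a 2-fold difference. Array medians over all probe sets lay between 6.18 and 6.26. Of the members, 37 had a mean at or above the 40th percentile of all probe sets (log2 5.33) and 32 lay below it. Differences of dim probe sets are shrunk by the processing used. Groups were compared with limma, and a gene passed at a p of at most 0.05 after Benjamini-Hochberg adjustment over all 22746 probe sets. The 7 measured green-tissue markers averaged 12.31 and 12.43 on the camta3-1 arrays, 12.47 and 12.51 on the camta3-2 arrays and 12.50 and 12.52 on the wild-type arrays, and none passed. The root hair expansin genes EXPA7 and EXPA18, the only measured root hair markers, ranged from 4.28 to 4.68 over the 6 arrays. Precision was limited by the 2 arrays of each group. For the mean of both alleles, a member's difference from wild type had a median standard error of 0.12.

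The first comparison asked which wall genes differed from wild type when CAMTA3 was mutated, taking the mean of both alleles with equal weight. Transcripts of 2 of the 69 genes fell and none rose (limma). They were TBL26, a mannan O-acetyltransferase of the TBL family, and GH9B8, a secreted-type endo-glucanase of the GH9 family. Over all probe sets 1.41% passed, 1.15% higher and 0.255% lower, while 2.90% of the members passed. At an unadjusted p under 0.05, 16 members were lower (23.2%) and 3 higher, against 8.08% and 5.31% of all probe sets. Under cyclic loess scaling the lower members numbered 9 (13%), against 5.22% of all probe sets. The difference was below 0 for 47 members (68.1%), against 62.6% of all probe sets. The difference was under 0.5 in size for 62 of the 69 members, and for 21715 of all 22746 probe sets.

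TBL26 (AT4G01080) was at 9.0 and 8.72 on the wild-type arrays, at 7.51 and 7.46 on the camta3-1 arrays and at 8.64 and 8.27 on the camta3-2 arrays. All 4 mutant arrays lay below both wild-type arrays, and the camta3-1 arrays lay below those of camta3-2. Its log2 difference was -0.89 (standard error 0.14), which passed (limma, adjusted p = 0.0298), a level 1.85-fold lower. The call was lost without camta3-1 replicate 1 (adjusted p = 0.057), wild type replicate 1 (adjusted p = 0.321) or wild type replicate 2 (adjusted p = 0.139). It was also lost when the mutant arrays were pooled into 1 group (adjusted p = 0.295). Over the alternatives tried, the difference ranged from -1.03 to -0.75.

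GH9B8 (AT2G32990) was at 7.44 and 7.45 in wild type, at 6.38 and 6.75 in camta3-1 and at 6.86 and 6.84 in camta3-2. The wild-type arrays were nearly equal, all mutant arrays lay below them, and the alleles did not overlap. Its log2 difference was -0.74 (standard error 0.12), which passed (limma, adjusted p = 0.036), a level 1.66-fold lower. The call was lost without camta3-2 replicate 1 (adjusted p = 0.0816) or 2 (0.0847), without wild type replicate 1 (0.311) or 2 (0.274), and with the mutant arrays pooled (0.0609). Over all alternatives tried, the difference ranged from -0.83 to -0.64.

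**Figure D1:**
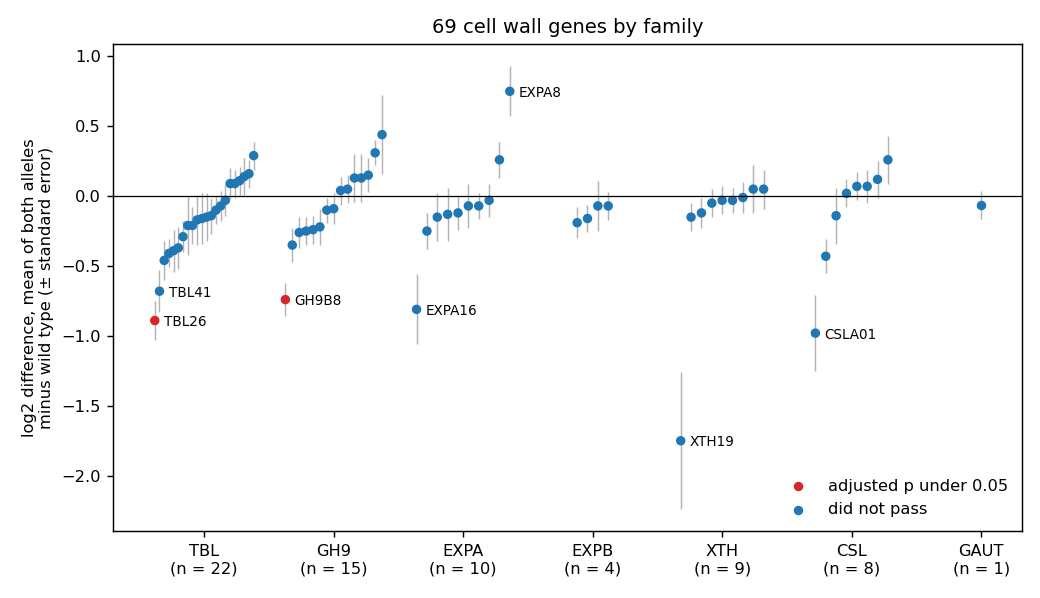
Log2 difference of each of the 69 cell wall genes for the mean of both camta3 alleles minus wild type (points, with standard error bars), grouped by family along the horizontal axis and sorted within it. Only TBL26 and GH9B8 (red) passed an adjusted p of 0.05 (limma), and XTH19 at -1.75 and EXPA8 at 0.75 were the extremes, neither of which passed.

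The TBL genes made up the largest family. Of 22 measured TBL genes, TBL26 fell and none rose (limma), and 16 had a difference below 0 (72.7%), against 62.6% of all probe sets. Among them 7 were lower at an unadjusted p under 0.05 (31.8%) and 1 higher (4.55%), against 8.08% and 5.31% of all probe sets. Cyclic loess left 4 of them lower (18.2%), against 5.22%. With both alleles averaged, their median difference was -0.155, and that over all probe sets was -0.046. Under cyclic loess scaling it was -0.12, against 0.004 over all probe sets. TBL41 was at 6.52 and 6.12 in wild type, 5.72 and 5.63 in camta3-1 and 5.78 and 5.40 in camta3-2. Its mutant arrays lay below wild type without overlap, and its difference of -0.68 did not pass (adjusted p = 0.104). TBL38, reported to remove acetyl groups from pectin, was at 7.48 and 7.57 in wild type and between 6.99 and 7.21 on the mutant arrays, a difference of -0.41 (adjusted p = 0.148). TBL15 lay on the other side, at 4.94 and 4.82 in wild type, 5.13 and 5.0 in camta3-1 and 5.27 and 5.30 in camta3-2, with a difference of 0.29 (adjusted p = 0.251). TBL39 had a difference of -0.17 (adjusted p = 0.753).

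Members known to act on mannan were set side by side after their values had been seen, so their grouping carries no test. Mannan backbones are made by the CSLA branch of the cellulose synthase-like proteins, and TBL23, TBL25 and TBL26 are mannan O-acetyltransferases. All 5 measured genes of these kinds had differences below 0 for the mean of both alleles, against 62.6% of all probe sets. Under cyclic loess and median centring of the same arrays all 5 stayed below 0, against 48.9% and 64.8%. Of the 5, TBL26 alone passed. CSLD2, the only CSL member outside the CSLA and CSLC branches, was not placed in this group. Its difference was 0.12 (limma, adjusted p = 0.76). CSLA01 was at 7.34 and 7.23 in wild type, 5.38 and 6.41 in camta3-1 and 6.49 and 6.94 in camta3-2. All mutant arrays lay below wild type, the camta3-1 replicates were 1.03 apart, and the difference of -0.98 (standard error 0.27) did not pass (limma, adjusted p = 0.168). Without camta3-1 replicate 2 the difference was -1.24 and passed (adjusted p = 0.0117). TBL25 was at 9.57 and 9.36 in wild type and between 8.81 and 9.27 on the mutant arrays, a difference of -0.37 (adjusted p = 0.336). TBL23 and CSLA03 overlapped between mutant and wild type, with differences of -0.15 and -0.14 (standard errors 0.17 and 0.2).

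The xylan and xyloglucan genes gave mixed values. TBL28, TBL30, TBL32, TBL34 and TBL35 belong to the branch of xylan acetyltransferases, and their differences ran from -0.39 for TBL28 to 0.16 for TBL32, with none passing (limma). At an unadjusted p under 0.05, 2 of the 5 were lower (40%), against 8.08% of all probe sets, and none higher. TBL32 was measured by a probe set that may also bind related transcripts. All 5 CSLC genes, which encode the xyloglucan backbone synthases, were measured and none passed. CSLC5 was at 8.13 and 7.99 in wild type, 7.58 and 7.71 in camta3-1 and 7.75 and 7.48 in camta3-2, a difference of -0.43 without overlap (adjusted p = 0.163). CSLC04 was at 8.89 and 8.94 in wild type, 9.39 and 8.77 in camta3-1 and 9.34 and 9.20 in camta3-2, a difference of 0.26 (adjusted p = 0.582). CSLC6, ATCSLC08 and CSLC12 had differences from 0.02 to 0.07. The CSLC genes thus differed among themselves in direction, and only CSLC5 had mutant arrays all on 1 side of wild type. GAUT15, of the family of pectin galacturonosyltransferases, had a difference of -0.06 (adjusted p = 0.852).

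Among the 9 XTH genes none passed for the mean of both alleles (limma). Only 1 was lower at an unadjusted p under 0.05 (11.1%) and none higher, against 8.08% and 5.31% of all probe sets. XTH19, a xyloglucan endotransglucosylase/hydrolase gene known from roots, had the lowest difference of all members. It was at 4.24 and 6.36 in wild type, 3.62 and 3.47 in camta3-1 and 3.53 and 3.57 in camta3-2. The mutant arrays were close together and below wild type, while the wild-type arrays were 2.12 apart, a gap reached by 8 of 22746 probe sets. The difference of -1.75 had a standard error of 0.49 and did not pass (adjusted p = 0.177). Without wild type replicate 1 it was -2.81 and passed (adjusted p = 0.0181), so the value rests on wild type replicate 2. XTH18, the neighbouring gene and a close relative, stayed between 3.25 and 3.44 on all 6 arrays. Its mean lay at percentile 1.62 of all probe sets, too dim for its steadiness to tell whether the gene responds. The mutant arrays of XTH19, between 3.47 and 3.62, were nearly as dim.

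The other XTH genes differed by no more than 0.15 in size. XTH32 was at -0.12 (adjusted p = 0.718), XTH26 at -0.15 (adjusted p = 0.571) and XTH16 at 0.05. XTH33, which encodes a membrane-anchored form, was also at 0.05. The family median was -0.033 as deposited and 0.021 under cyclic loess, so it had no settled direction.

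Of the 10 alpha-expansin genes none passed for the mean of both alleles (limma). There were 1 higher and 1 lower at an unadjusted p under 0.05 (10% each), against 5.31% and 8.08% of all probe sets. The 2 genes with the largest differences lay in opposite directions. EXPA8 was at 8.89 and 8.70 in wild type, 9.79 and 9.20 in camta3-1 and 9.78 and 9.42 in camta3-2. All mutant arrays lay above wild type, and the difference of 0.75 (standard error 0.18), the highest of all members, did not pass (adjusted p = 0.133). It passed without camta3-1 replicate 2 (0.90, adjusted p = 0.0322). EXPA16 was at 7.08 and 6.24 in wild type, 6.06 and 5.57 in camta3-1 and 6.07 and 5.71 in camta3-2, a difference of -0.81 (standard error 0.25, adjusted p = 0.221). All its mutant arrays lay below wild type, and the wild-type replicates differed by 0.84. EXPA24 was at -0.25 (adjusted p = 0.477). The root hair expansin genes EXPA7 and EXPA18 had differences of -0.07 and -0.12 (adjusted p = 0.807 and 0.749). EXPA18 overlapped with wild type in each allele. EXPA7 was at 4.53 and 4.56 in wild type, 4.37 and 4.33 in camta3-1 and 4.63 and 4.55 in camta3-2. Its camta3-1 arrays lay below wild type (-0.19, adjusted p = 0.538), and its camta3-2 arrays overlapped with it (0.05, adjusted p = 0.898). Between the alleles, EXPA7 was 0.24 higher in camta3-2 without overlap, which did not pass (adjusted p = 0.778).

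The 15 endo-glucanase genes of family GH9 held the second gene that fell, GH9B8, and 5 of them (33.3%) were lower at an unadjusted p under 0.05, against 8.08% of all probe sets. Under cyclic loess 1 of the 15 was (6.67%), against 5.22%. GH9B7 was at 10.25 and 10.14 in wild type, 9.92 and 9.87 in camta3-1 and 10.10 and 9.84 in camta3-2, a difference of -0.26 (adjusted p = 0.355). GH9B5 had a difference of -0.35 (adjusted p = 0.29), also with all mutant arrays below wild type. GH9B6 lay the other way, at 3.54 and 3.48 in wild type, 3.72 on both camta3-1 arrays and 3.93 on both camta3-2 arrays. Its groups were apart from each other, but the probe set was dim and the difference of 0.31 did not pass (adjusted p = 0.191). GH9B13 had a difference of 0.44 with a standard error of 0.28 (adjusted p = 0.565), and its camta3-1 replicates, at 8.51 and 9.52, differed by 1.01.

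In the reference gene order, GH9B16, GH9B17 and GH9B18 lie next to each other, and their differences were -0.25, 0.04 and 0.15. The adjacent genes TBL28 and TBL30 were at -0.39 and 0.09, and TBL19 and TBL21 at -0.46 and -0.07. GH9B11 and GH9B12, also adjacent, had nearly equal differences of -0.10 and -0.09. None of these passed, and probe sequences that related copies may share were not examined.

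**Figure D2:**
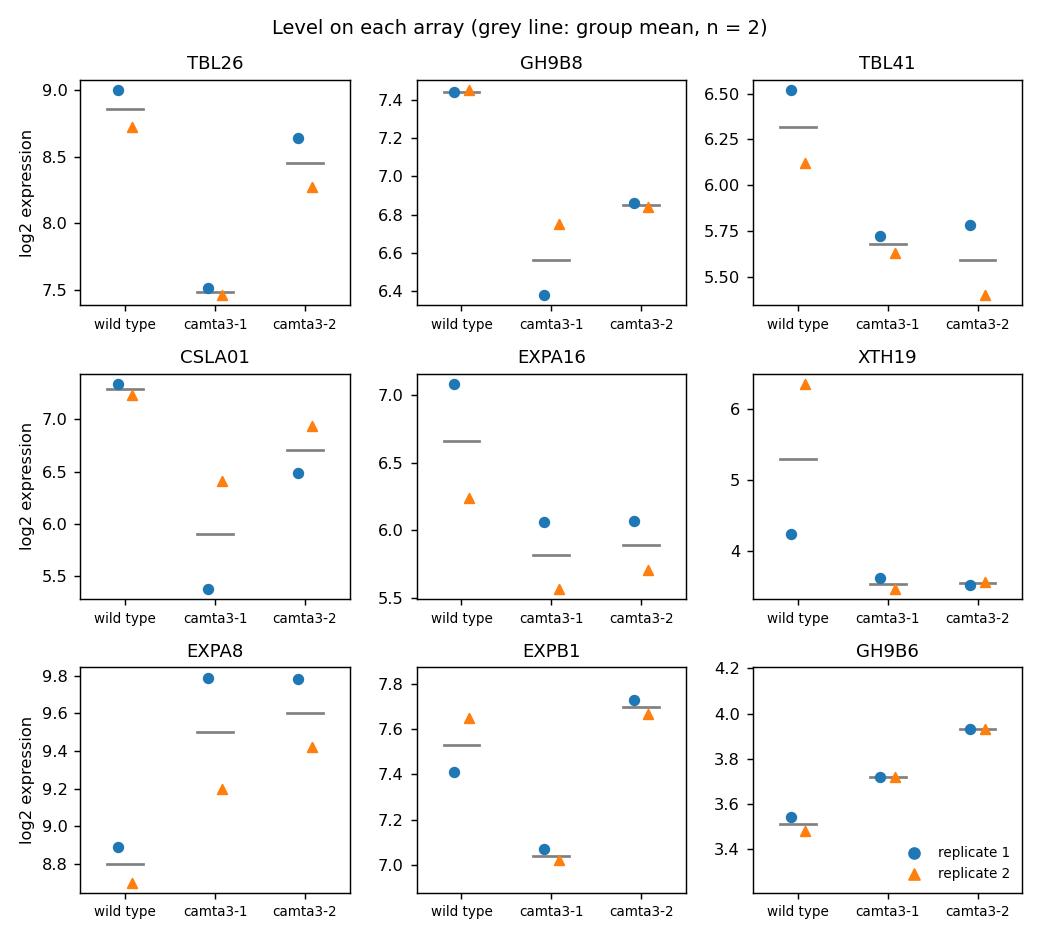
Log2 expression on each array (circles replicate 1, triangles replicate 2, grey lines group means of 2) for 9 cell wall genes, 1 gene per panel, with axes that do not start at 0. TBL26 was lowest in camta3-1, GH9B8 was lower in both alleles with near-equal wild-type arrays, and the wild-type arrays of XTH19 stood 2.12 apart.

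Each allele was next compared with wild type on its own, and both comparisons used the same wild-type arrays. In camta3-1, TBL26 and GH9B8 fell and no member rose, with 1.08% of all probe sets passing (0.277% lower). TBL26 had a log2 difference of -1.37 (standard error 0.16, limma, adjusted p = 0.0131), a level 2.59-fold lower, and GH9B8 one of -0.88 with a standard error of 0.14 (adjusted p = 0.0386). At an unadjusted p under 0.05, 15 members were lower in camta3-1 (21.7%), against 7.18% of all probe sets, and 48 had a difference below 0 (69.6%), against 59%. GH9B8 lost the call when only camta3-1 and wild type were fitted (adjusted p = 0.0618), and when camta3-1 replicate 1, either camta3-2 array or either wild-type array was left out (adjusted p from 0.0618 to 0.298). Leaving out 1 array ended the TBL26 call without camta3-1 replicate 1 and without either wild-type array (adjusted p from 0.0526 to 0.163). CSLA01 was at -1.39 in camta3-1 (adjusted p = 0.108), TBL41 at -0.64 (adjusted p = 0.186) and EXPB1 at -0.49 (adjusted p = 0.143).

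In camta3-2 none of the 69 genes passed (limma), where 0.734% of all probe sets did (0.0791% lower). Of the members, 8 were lower and 3 higher at an unadjusted p under 0.05, or 11.6% and 4.35%, against 6.59% and 4.59% of all probe sets. The difference was below 0 for 43 members (62.3%), against 63.6% of all probe sets. TBL26 was at -0.40 (95% interval -0.78 to -0.03, adjusted p = 0.406) and GH9B8 at -0.59 (interval -0.92 to -0.27, adjusted p = 0.167). The lowest differences after XTH19 were those of EXPA16 and TBL41, at -0.77 (adjusted p = 0.385) and -0.72 (adjusted p = 0.186). EXPA8 was at 0.80 (adjusted p = 0.226), GH9B6 at 0.42 (adjusted p = 0.187) and TBL15 at 0.40 (adjusted p = 0.248).

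**Figure D3:**
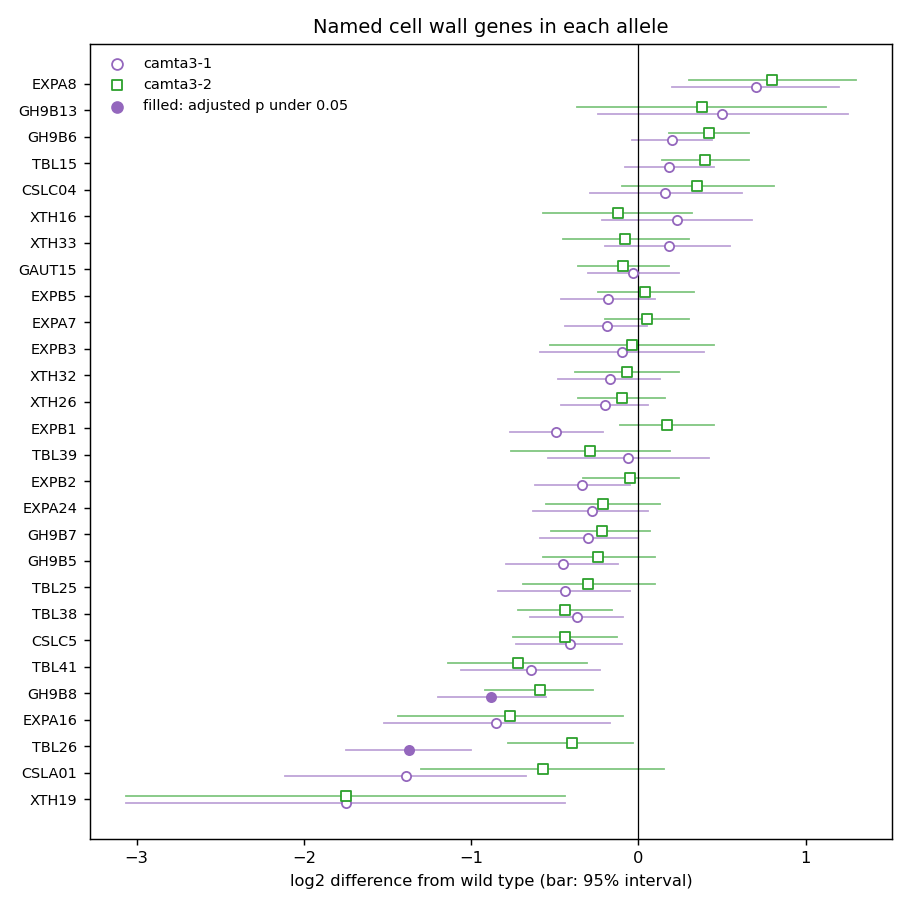
Log2 difference from wild type in camta3-1 (circles) and camta3-2 (squares) with 95% intervals for the 28 named cell wall genes, sorted by the mean of both alleles. Filled symbols, TBL26 and GH9B8 in camta3-1, mark an adjusted p under 0.05 (limma), and both alleles share the wild-type arrays.

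The members were also counted by whether their arrays overlapped with wild type. All 4 mutant arrays lay below both wild-type arrays for 16 members (23.2%), against 15.8% of all probe sets, and above them for 4 (5.80%), against 7.89%. In camta3-1 both arrays lay below wild type for 29 members (42.0%), against 29.1% of all probe sets, and above it for 6 (8.70%), against 16.2%. In camta3-2 the counts were 20 below (29.0%) and 11 above (15.9%), close to the 28.9% and 13.4% of all probe sets. These shares are descriptions without a test, and the tilt towards lower values in the whole table depended on the scaling. Under cyclic loess 34.8% of members and 20.8% of all probe sets were below wild type in camta3-1, and 21.7% and 19.2% in camta3-2.

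**Figure D4:**
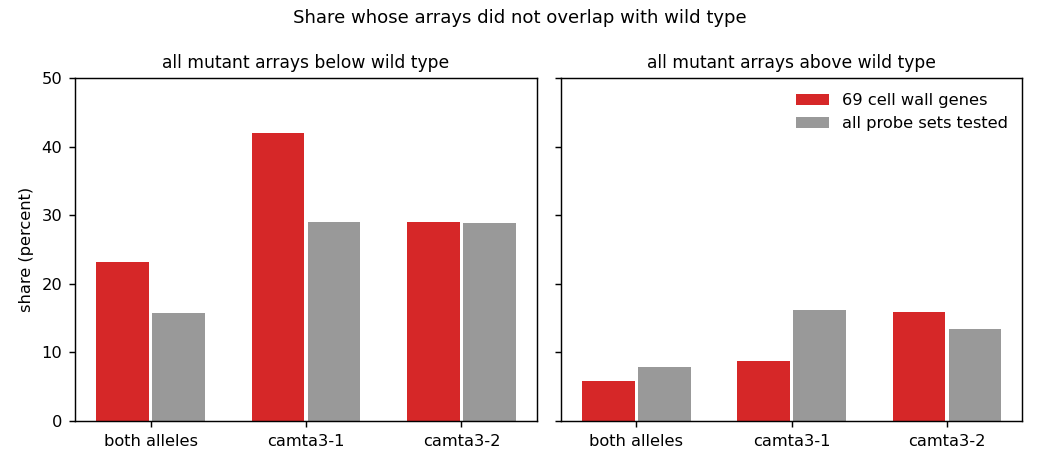
Share of the 69 cell wall genes (red) and of all 22746 probe sets tested (grey), in percent, for which every mutant array lay below (left) or above (right) both wild-type arrays. The share below was 42.0% against 29.1% in camta3-1 and 29.0% against 28.9% in camta3-2.

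The last comparison set the alleles against each other. No member passed (limma), where 1 of 22746 probe sets did (0.0044%), and 5 members had an unadjusted p under 0.05, all of them higher in camta3-2. That is 7.25% of the members higher and none lower, against 2.49% and 3.85% of all probe sets. These were TBL26, EXPB1, CSLA01, TBL19 and EXPB2. TBL26 was higher in camta3-2 by 0.97 (95% interval 0.60 to 1.34, adjusted p = 0.597), EXPB1 by 0.66 (interval 0.38 to 0.94, adjusted p = 0.658) and CSLA01 by 0.82 (interval 0.09 to 1.54, adjusted p = 0.778). For GH9B8 the difference was 0.29 (interval -0.04 to 0.61, adjusted p = 0.792). The intervals are those of single genes and are not adjusted for the number of genes. XTH16 had the lowest value, -0.35 (adjusted p = 0.809), and XTH33 was at -0.25 (adjusted p = 0.825).

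Of the 69 members, 50 (72.5%) had a higher mean in camta3-2 than in camta3-1, against 46.8% of all probe sets. A lower mean was found for 19 members (27.5%), against 53.2%. Both camta3-2 arrays lay above both camta3-1 arrays for 16 members (23.2%), against 14.9% of all probe sets, and below them for 2 (2.90%), against 19.7%. The shares with a higher mean were 71.0% and 50.4% under cyclic loess and 76.8% and 58.7% under median centring. Among the 32 dim members 28 had the higher mean in camta3-2 (87.5%), against 54.2% of all dim probe sets, and among the 37 brighter members 22 did (59.5%), against 41.9%. The size was small, with a median of 0.078 over the members and -0.012 over all probe sets. By array, the median level of the members overlapped, at 5.556 and 5.627 in camta3-1 and 5.784 and 5.533 in camta3-2. The shares are descriptions without a test, and they rest on the same mutant arrays as the comparisons with wild type.

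The 4 beta-expansin genes, wall-loosening proteins like the alpha-expansins, had the highest family median in this comparison (0.254), each with a higher mean in camta3-2, as deposited and also under cyclic loess and median centring. EXPB1 was at 7.41 and 7.65 in wild type, 7.07 and 7.02 in camta3-1 and 7.73 and 7.67 in camta3-2. The camta3-1 arrays lay below wild type and the camta3-2 arrays just above it. Such opposite sides were also seen for XTH18, a dim probe set, and for 1.95% of all probe sets. EXPB2 was at 4.97 and 5.04 in wild type, 4.57 and 4.77 in camta3-1 and 4.88 and 5.04 in camta3-2, a difference of 0.29 between the alleles (adjusted p = 0.778). EXPB5 and EXPB3 differed between the alleles by 0.22 and 0.05. TBL19 was at 5.33 and 4.86 in wild type, 4.47 and 4.38 in camta3-1 and 4.77 and 4.92 in camta3-2, and was named after its values were seen. The 1 measured gene of the trichome list, TRY, was at 6.05 and 6.37 in camta3-1, 6.92 and 6.76 in camta3-2 and 6.34 and 6.66 in wild type. TRY was 0.63 higher in camta3-2 than in camta3-1, which did not pass (limma, adjusted p = 0.778). In whole-tissue RNA, fewer cells of a type and less transcript per cell cannot be told apart, and the part of tissue composition in these values was not tested.

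Replicates within a group were compared for the same genes. A gap of at least 0.5 between the arrays of a group occurred for 10 of the 69 members in camta3-1, 4 in camta3-2 and 3 in wild type. In the same order, the shares of all probe sets were 5.37%, 6.08% and 2.66%. In at least 1 group such a gap occurred for 16 members (23.2%), against 11.8% of all probe sets. CSLA01 and GH9B13 had the widest gaps in camta3-1, 1.03 and 1.01, and XTH19 had the widest in wild type. The median standard deviation of the members was 0.106, 0.118 and 0.0883 in camta3-1, camta3-2 and wild type, and over all probe sets it was 0.0945, 0.108 and 0.0886.

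Genes of other wall pathways were looked up in 10 lists, of which 6 had measured genes, 12 in all. None of the 12 passed in any of the 4 comparisons (limma), with 2 higher and 2 lower at an unadjusted p under 0.05 for the mean of both alleles (16.7% each), against 5.31% and 8.08% of all probe sets. IRX15-L, which takes part in xylan synthesis, was at 5.45 and 4.90 in wild type, 4.38 and 4.44 in camta3-1 and 4.92 and 4.43 in camta3-2, a difference of -0.64 (adjusted p = 0.2). The camta3-2 array at 4.92 overlapped with wild type. ATPMEPCRB, a pectin methylesterase gene, was at 4.66 and 5.17 in wild type, 6.41 and 5.96 in camta3-1 and 5.30 and 4.80 in camta3-2. It differed from wild type by 1.27 in camta3-1 (adjusted p = 0.0697) and by 0.13 in camta3-2 (adjusted p = 0.88). Set against each other, the alleles gave no call for ATPMEPCRB (adjusted p = 0.778). PMEPCRF, of the same list, was at 8.81 and 8.83 in wild type and between 9.04 and 9.51 on the mutant arrays. It differed from wild type by 0.46 in camta3-1 (adjusted p = 0.337) and by 0.44 in camta3-2 (adjusted p = 0.397). The other 2 genes of that list were at -0.36 and -0.09 for the mean of both alleles. COB, which encodes a membrane-anchored protein needed for oriented cellulose deposition, was at -0.08 (adjusted p = 0.773). HCT and 4CL8 of the lignin list were at -0.14 and -0.42 (adjusted p = 0.576 and 0.221). These genes, and the members named by polymer, by position or beside a neighbour (such as TBL28, CSLC6, GH9B16 and XTH18), were picked after their values were seen.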

How the data were processed

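Total RNA was hybridised as biotin-labelled target to 1 array per plant sample. The authors deposited 1 log2 value for each probe set and array, for which the submitters' processing notes name RMA and Partek without a version. This method corrects background, makes array distributions alike and summarises probes, which removes shifts shared by all transcripts. The genome build is not given, so no positions are printed.

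Of 22810 probe sets, 64 controls were left out. By the platform annotation, 13513 probe sets had 1 gene, 503 had several and 8730 had none. All 69 member symbols matched a locus in the RefSeq table of assembly TAIR10.1, used for names and gene order only. Members and lists were chosen with earlier results of these data known.

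All 6 arrays entered 1 fit in limma 3.58.1 in R 4.3.3, with a mean for each group and empirical Bayes moderation (3 residual and 4.43 prior degrees of freedom). Benjamini-Hochberg adjustment ran over 22746 probe sets, with a threshold of 0.05. The fit was tested on simulated data. Named genes (28) were all members that passed, TBL26, GH9B8 and EXPA7, the member with the highest mean and up to 3 with the smallest p in each family, and the 3 highest and lowest differences per comparison. The alternatives tried were cyclic loess, a replicate block, the 40th percentile as a filter, median centring, a trended robust prior, an unmoderated test, fits of the compared groups alone, probe sets with 1 gene, other thresholds, another probe set per gene and leaving out each array. Alternatives added after seeing the data were to count in members by synonym and to leave out members with a shared probe set. Plots used matplotlib 3.10.9 under Python 3.11.15.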

Additional observations from a re-analysis of the deposited data

Results flagged for a closer look

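For EXPB1 both camta3-1 arrays lay below both wild-type arrays and both camta3-2 arrays lay above them, with a difference of 0.66 between the alleles. XTH18 had the same pattern with a difference of 0.17, but its probe set was dim, with values between 3.25 and 3.44 (percentile 1.62 of mean level). Opposite sides occurred for 444 of 22746 probe sets (1.95%). The sides themselves were not tested. With the alleles set against each other, neither gene passed, EXPB1 (limma, adjusted p = 0.658) nor XTH18 (adjusted p = 0.822).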

How the results depend on the processing

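The passing counts were 2, 2, 0 and 0 of 69 genes for the mean of both alleles, camta3-1, camta3-2 and the difference between the alleles. A replicate block, with the replicate number as a term, gave 5, 4, 1 and 0. The calls gained under it were TBL41 (adjusted p = 0.0277), EXPA8 (0.0238) and EXPA16 (0.0258) for the mean of both alleles, EXPA16 (0.0399) and CSLA01 (0.0452) in camta3-1, and EXPA8 (0.0422) in camta3-2. Replicate numbers were not taken as pairs, because nothing in the labels says that a number marks a shared batch. Deviations of same-numbered arrays correlated at 0.402 between the alleles (0.523 over the members). Between each allele and wild type they correlated at -0.0367 and 0.134 (0.0131 and 0.0692 over the members). The main fit has no term for variation that same-numbered arrays share, so any such variation stays in its standard errors. The unmoderated test gave 0 for both alleles together and 0 for camta3-1, as did an adjusted p of 0.01. Fits of the compared groups alone gave 0 for the mean of both alleles with mutants pooled and 1 for camta3-1. Leaving out 1 array gave 0 to 4 genes for the mean of both alleles, 0 to 3 for camta3-1, 0 to 1 for camta3-2 and 0 between the alleles. A lone array left in a group was assumed to vary like the others. The causes of these moves were not tested. The remaining alternatives kept each count within 1.5 times. Each gene had 1 probe set, so choosing another changed nothing. The median difference of the members for the mean of both alleles was -0.094 and ranged from -0.139 (filter at the 40th percentile) to -0.036 (cyclic loess) over the alternatives that kept all arrays. RMA shrinks differences of dim probe sets, so a small change in the 32 dim members could be missed. The size of change that could be detected was not tested.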

Other observations

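Genes of the same families lay just outside the member rule. EXGT-A3, whose synonym is XTH27, was at 10.41 and 9.99 in wild type, 10.29 and 9.54 in camta3-1 and 10.04 and 9.82 in camta3-2, a difference of -0.28 for the mean of both alleles (limma, adjusted p = 0.653). AT2G31110, whose synonym is TBL40, was measured by 2 probe sets with differences of 0.41 and 0.32 (adjusted p = 0.336 and 0.265), above 0 where most TBL members lay below. Of the 4 probe sets shared by a pair of expansin or GH9 genes, none passed, with differences from -0.13 to -0.05.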
